A study of Caenorhabditis elegans with 2 samples.

Results

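Single-strand upstream regions are described here for an FLT-1 fusion protein bound to chromatin of Caenorhabditis elegans embryos. These are regions whose summit lay over 250 and up to 1000 bp upstream of the nearest protein-coding gene start, where all promoters covering the summit pointed in 1 direction. There were 376 such regions among 2520 nuclear regions, or 14.9% (95% Wilson interval 13.6 to 16.4%). A region was a set of overlapping peaks of the conservative list over both replicates, with the strongest of these peaks giving its position. Promoters covered the 1000 bp before and the 200 bp after a protein-coding start of the WBcel235 annotation, and summits within 200 bp of a tRNA gene were left out. Within the conservative list, position chose the members. The list itself holds only peaks past a reproducibility threshold, and the strongest peak placed each region, in every class alike.

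The series holds 1 group of 2 biological replicates and no second condition. All material was strain RW12255, in which allele st12255 tags flt-1 with TY1, EGFP and 3xFLAG. Whole midembryonic embryos were obtained by bleaching, with an age of 1 hour on the label, and chromatin was immunoprecipitated through the GFP tag. Peaks therefore show where the tagged protein lay, averaged over all cells of the embryo. No control list was analysed here, and the number of reads is unknown.

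The gene flt-1 is named baz-2 in current annotation and encodes a bromodomain and PHD-finger protein of the BAZ2 family. In mammals, BAZ2 proteins partner the nucleosome remodeller ISWI, and BAZ2A is known for silencing ribosomal RNA genes. Many worm transcripts are trans-spliced, which removes the first part of the transcript and adds a spliced leader. An annotated start can therefore lie downstream of the place where transcription begins, and a summit upstream of it may mark a promoter, an enhancer or another transcription unit. Which of these applied at a given region was not tested.

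Sequences around the summits fell into kinds that recur in the values below. The first set shows a strong region that shared no long run of sequence with another region and 2 regions with letters of internal tRNA promoters. Each sequence holds the summit and 100 bases to either side, is read on the strand of the gene, 5′ to 3′, and comes from the RefSeq copy of WBcel235, the assembly called ce11. Capitals mark box A (TGGCNNAGT) and box B (GTTCGANNC), the elements through which TFIIIC recruits RNA polymerase III at tRNA genes, and the letters GAGAGA or TCTCTC.
K12H4.5, chrIII:8043865-8044065, plus strand, 522 bp upstream: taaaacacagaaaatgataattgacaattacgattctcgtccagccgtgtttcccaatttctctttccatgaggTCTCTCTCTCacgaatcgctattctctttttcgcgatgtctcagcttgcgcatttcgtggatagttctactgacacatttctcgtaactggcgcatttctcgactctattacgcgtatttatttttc
dhs-8, chrII:14496926-14497126, plus strand, 1000 bp upstream: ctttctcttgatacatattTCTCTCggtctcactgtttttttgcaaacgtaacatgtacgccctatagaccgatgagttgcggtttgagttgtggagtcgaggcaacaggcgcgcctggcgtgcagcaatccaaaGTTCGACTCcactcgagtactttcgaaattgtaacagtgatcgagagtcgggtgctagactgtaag
ZK1321.4, chrII:9774761-9774961, minus strand, 919 bp upstream: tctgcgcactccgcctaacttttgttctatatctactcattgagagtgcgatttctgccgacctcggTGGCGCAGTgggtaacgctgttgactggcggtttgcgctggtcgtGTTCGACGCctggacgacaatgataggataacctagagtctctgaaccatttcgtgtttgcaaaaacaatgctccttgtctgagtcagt

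The second set shows summits in multi-copy sequence. Capitals mark bases in runs of at least 20 identical bases, on either strand, that another nuclear region over 200 bp away also held within 100 bp of its summit. The windows at eel-1, a HECT-type ubiquitin ligase gene, held the same 80 bases on opposite strands, so the summits flanked an inverted repeat. The mtcu-2 and vps-39 windows shared 110 bases, also on opposite strands relative to their genes. The M01F1.9 window shared at most 15 bases with the first of eel-1, so it is not an exact copy of that repeat.
eel-1, first region, chrIV:3050804-3051004, minus strand, 800 bp upstream: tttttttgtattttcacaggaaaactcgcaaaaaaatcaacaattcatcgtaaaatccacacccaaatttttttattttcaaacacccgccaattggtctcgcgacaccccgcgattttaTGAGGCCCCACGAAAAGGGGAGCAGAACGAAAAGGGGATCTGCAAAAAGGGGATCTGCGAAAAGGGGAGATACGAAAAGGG
eel-1, second region, chrIV:3050385-3050585, minus strand, 381 bp upstream: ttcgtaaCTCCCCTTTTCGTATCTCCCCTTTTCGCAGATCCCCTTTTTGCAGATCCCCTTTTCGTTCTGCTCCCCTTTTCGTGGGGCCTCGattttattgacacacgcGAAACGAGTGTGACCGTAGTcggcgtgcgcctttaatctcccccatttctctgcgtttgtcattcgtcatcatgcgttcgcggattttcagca
M01F1.9, chrIII:3499934-3500134, minus strand, 977 bp upstream: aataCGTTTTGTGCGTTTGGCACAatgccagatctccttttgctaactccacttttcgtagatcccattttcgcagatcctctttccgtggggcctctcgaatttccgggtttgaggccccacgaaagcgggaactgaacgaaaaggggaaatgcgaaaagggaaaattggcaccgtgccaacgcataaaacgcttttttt
mtcu-2, chrII:10033577-10033777, minus strand, 464 bp upstream: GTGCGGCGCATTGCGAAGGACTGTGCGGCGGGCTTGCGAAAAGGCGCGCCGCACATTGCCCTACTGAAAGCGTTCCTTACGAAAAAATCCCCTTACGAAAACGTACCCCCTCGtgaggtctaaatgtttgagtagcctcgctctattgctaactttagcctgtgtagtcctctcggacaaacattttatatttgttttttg
vps-39, chrV:14038794-14038994, minus strand, 516 bp upstream: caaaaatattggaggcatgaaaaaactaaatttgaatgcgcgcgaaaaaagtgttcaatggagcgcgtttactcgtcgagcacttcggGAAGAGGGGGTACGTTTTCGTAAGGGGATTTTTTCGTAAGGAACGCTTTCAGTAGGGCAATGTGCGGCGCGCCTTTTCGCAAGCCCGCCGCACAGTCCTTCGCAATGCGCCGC

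The regions crowded toward the start. Of the 376 regions, 191 lay over 250 and up to 500 bp upstream, 114 up to 750 bp and 71 up to 1000 bp, with a median distance of 483 bp. Eligible sequence is the sequence on which a summit could fall and meet the rule. Per Mb of it there were 48.5 regions in the nearest of these bins (95% exact Poisson interval 41.9 to 55.9). There were 28.2 (23.3 to 33.9) in the middle bin and 17.4 (13.6 to 21.9) in the farthest. The intervals of these 3 bins did not overlap. The density in the farthest bin was close to the 15.97 per Mb outside promoters (15.1 to 16.9, 1254 regions), while single-strand summits 0 to 250 bp upstream reached 62.5 per Mb (55.04 to 70.8). Intervals here cover counting error only.

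**Figure D1:**
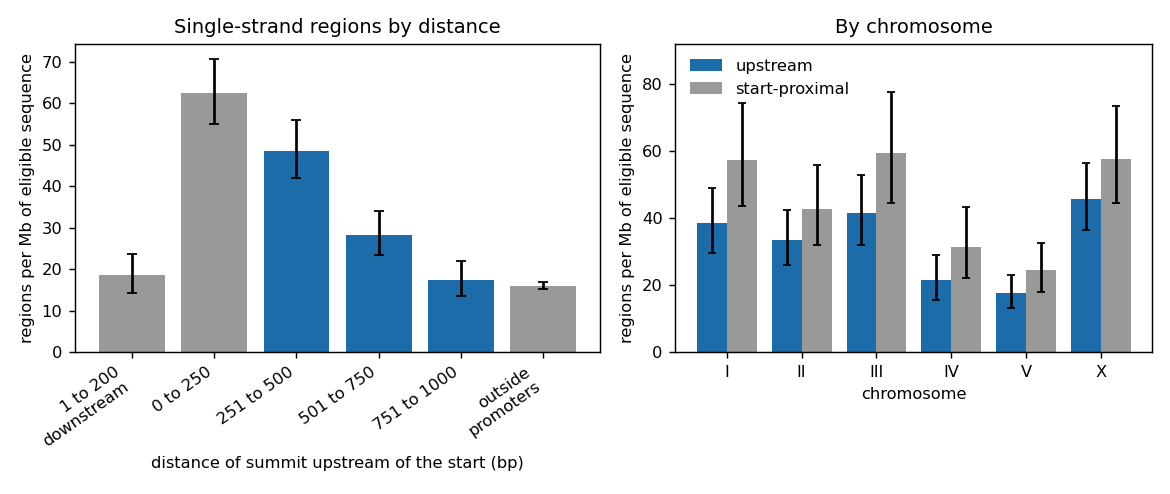
Left, single-strand regions per Mb of eligible sequence by distance of the summit from the start, with upstream regions in blue, start-proximal regions and regions outside promoters in grey, and 95% exact Poisson intervals as bars. The 3 upstream bins stood at 48.5, 28.2 and 17.4 per Mb from near to far. Right, the same density by chromosome for upstream (blue) and start-proximal (grey) regions.

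Density also differed by chromosome. The X chromosome held 84 upstream regions, 45.7 per eligible Mb (36.4 to 56.5), against 28.6 on the autosomes (25.4 to 32.0, 292 regions). Chromosome V was lowest at 17.5 per Mb (13.1 to 22.97) and chromosome III highest among autosomes at 41.4 (31.9 to 52.8). The start-proximal class ran the same way, with 57.7 per Mb on X (44.6 to 73.4) and 39.8 on autosomes (35.03 to 45.2). Outside promoters the values were 16.5 per Mb on X (14.5 to 18.7) and 15.9 on autosomes (14.9 to 16.9).

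The distance window set the members, and values near its ends are given as a description. Just inside the near end lay regions of rpl-29 (at the first base inside, signal 88.5), clec-140 (252 bp, 84.0) and lin-36 (253 bp, 91.7). Just outside it lay F44E7.4 (249 bp, 289) and mrps-16 (248 bp, 86.6). Just inside the far end lay dhs-8 (1000 bp, 433), C44C11.6 (998 bp, 70.7) and T08G5.3 (996 bp, 125). Just outside it lay ain-1 and EGAP1.1, both at 1005 bp, with signals of 142 and 70.9.

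Most summits lay between protein-coding genes, in sequence called intergenic here. It held 311 summits (82.7%, Wilson 78.6 to 86.2%), introns 31, coding exons 21 and untranslated exons 13. A summit inside another protein-coding gene was found at 65 regions, with the host gene on the same strand as the downstream gene at 30 and on the opposite strand at 33. By distance, such summits were 23 of 191 regions (12.04%) in the nearest bin, 26 of 114 (22.8%) in the middle bin and 16 of 71 (22.5%) in the farthest. Of the intergenic regions, 185 had a tandem gene as the next gene behind them and 126 a divergent one, at a median gap of 1775 bp. The single-strand rule left out summits that the promoter of a divergent gene also covered, so close divergent neighbours are missing by definition. The split and the gap therefore depend on the rule, and an excess of tandem genes was not tested.

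The pooled signal is the value that the authors' peak caller gave each peak over both replicates, on a scale that no source used here states. Its median over upstream regions was 98.5, with quartiles of 81.1 and 142 and a range of 31.0 to 987. The values of the single replicates come from each replicate's own ranked list and were found for 371 regions in replicate 1 and 372 in replicate 2. Their medians were 58.3 and 41.5. Replicate 1 was higher at 317 of 367 regions with both values (86.4%, Wilson 82.5 to 89.5%), with a median log2 ratio of 0.47 and an SD of 0.42. Across these regions, which share 2 libraries, log2 signals of the replicates had a Pearson r of 0.82 and a Spearman rho of 0.61.

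**Figure D2:**
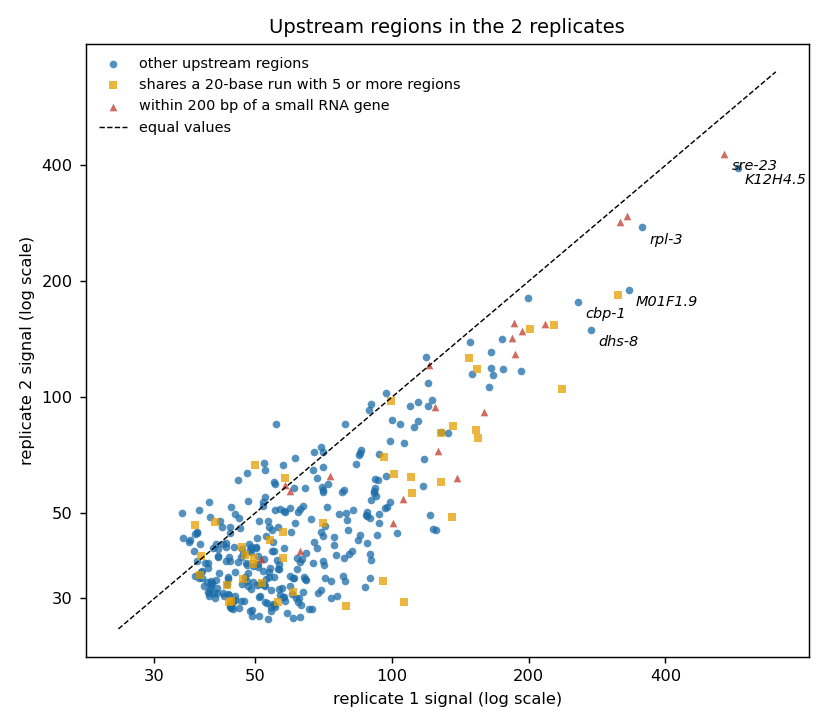
Signal of each upstream region in replicate 1 (x axis) and replicate 2 (y axis), both on log scales, with the line of equal values dashed. Red triangles lie within 200 bp of a small RNA gene, orange squares are other regions that share a 20-base run with at least 5 nuclear regions, and blue dots are the rest; most points lie below the line, and sre-23 and K12H4.5 stand at the top in both replicates.

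The replicates taken alone found different shares of the regions. The thresholded list of replicate 1 overlapped 198 regions (52.7%) and that of replicate 2 overlapped 146 (38.8%). Both lists overlapped 124 regions (33.0%, Wilson 28.4 to 37.9%), and neither overlapped 156 (41.5%, 36.6 to 46.5%). These 156 regions were reported only by the comparison of both replicates, under the list's irreproducible discovery rate (IDR) threshold of 0.01. The 25 strongest regions, ranked by the mean of both log2 replicate signals, were all in both own lists.

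Against the other classes, 20 properties that do not tell the classes apart by rule were compared by 2-sided Fisher's exact tests in 60 comparisons. The share on X also depends on where each class has eligible sequence, which the tests did not take into account. Regions were counted as independent, although neighbours and copies of a repeat are not. Of these comparisons, 33.3% (20 of 60) passed a Benjamini-Hochberg adjusted p of 0.05. Against start-proximal single-strand regions, 3 comparisons passed. Against two-strand promoter regions 12 passed, and against regions outside promoters 5. Those 5 were pooled signal, the signal of each replicate, presence in both own lists and IDR, and the same 5 were among the 12. They are related readings of peak strength, so the calls are not separate differences.

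Signal placed upstream regions between two-strand promoter regions and regions outside promoters. Signal above the median of nuclear regions was found at 190 of 376 upstream regions (50.5%), against 198 of 304 two-strand promoter regions (65.1%; Fisher's exact test, adjusted p = 0.000903) and 461 of 1254 regions outside promoters (36.8%; adjusted p = 3.18e-05). Each replicate alone gave the same order, with 48.12% of upstream and 65.8% of two-strand regions above the median in replicate 2 (exact test, adjusted p = 5.59e-05). An IDR of at most 0.001 was reached by 42.6% of upstream regions, against 56.3% of two-strand promoter regions (exact test, adjusted p = 0.00214) and 28.9% of regions outside promoters (adjusted p = 1.66e-05). The own lists of both replicates held 33.0% of upstream regions, against 46.4% of two-strand regions (exact test, adjusted p = 0.00246) and 19.9% outside promoters (adjusted p = 5.87e-06). With the own list of 1 replicate, where regions were fewer, the difference in signal from two-strand promoters was not called (exact test, adjusted p = 0.372 without replicate 1 and 0.343 without replicate 2). That from regions outside promoters was lost without replicate 1 (exact test, adjusted p = 0.617). Among regions with an IDR of at most 0.001 none of the differences in signal or in own lists was called.

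Upstream and start-proximal regions were not told apart by strength. Signal above the nuclear median was found at 50.5% of upstream (Wilson 45.5 to 55.6%) and 54.2% of start-proximal regions (exact test, adjusted p = 0.551), and both own lists held 33.0% and 32.4% (adjusted p = 0.928). The median pooled signals were 98.5 upstream, 102.9 start-proximal, 116.1 in two-strand promoters, 87.4 outside promoters and 196 near tRNA genes.

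**Figure D3:**
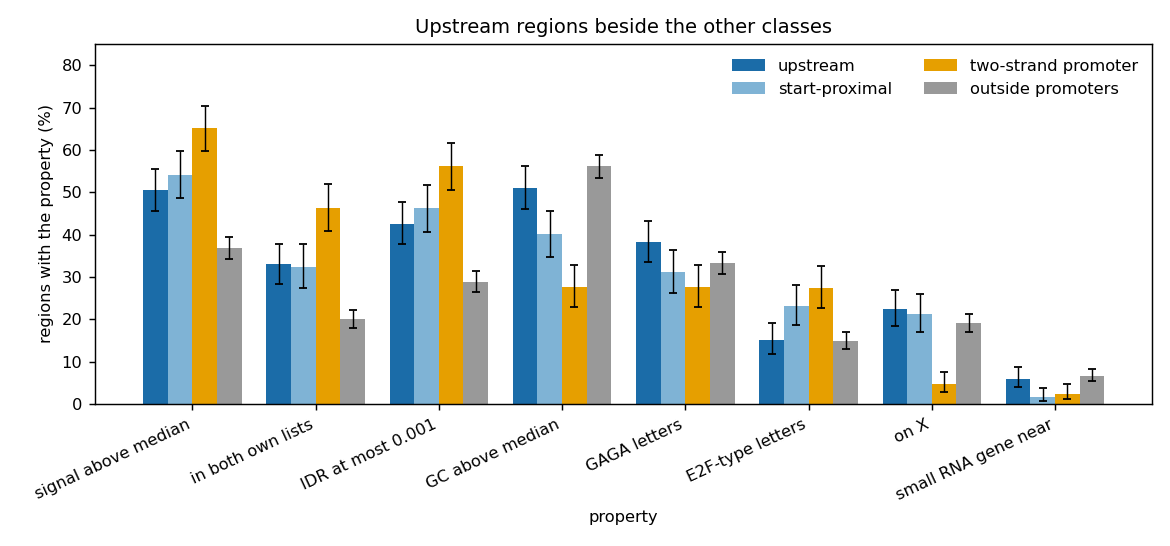
Share of regions with each of 8 properties in upstream regions (dark blue), start-proximal regions (light blue), two-strand promoter regions (orange) and regions outside promoters (grey), with 95% Wilson intervals. Upstream regions lay between two-strand promoters and regions outside promoters in signal, IDR and presence in both own lists.

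Upstream regions were richer in GC than both promoter classes. The median GC content within 100 bp of the summit was 46.8%, whereas windows of the same length centred 483 bp upstream of all 19973 protein-coding starts had a median of 33.8% (quartiles 29.9 and 38.8%). GC content above the median of nuclear regions was found at 192 of 376 upstream regions (51.1%), against 125 of 312 start-proximal regions (40.1%; Fisher's exact test, adjusted p = 0.0179) and 84 of 304 two-strand promoter regions (27.6%; adjusted p = 1.48e-08). Regions outside promoters were at 56.1% (exact test, adjusted p = 0.208). The difference from start-proximal regions was not called at an IDR of at most 0.001 (exact test, adjusted p = 0.222), for a window starting above 150 bp (0.181) or for a reach of 750 bp (0.0651). With windows within 50 bp of the summit neither promoter class differed past the threshold (exact test, adjusted p = 0.271 for start-proximal and 0.223 for two-strand regions).

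Short motifs were searched on both strands of the same windows. The letters GAGAGA were found at 144 upstream regions (38.3%), against 27.6% of two-strand promoter regions (Fisher's exact test, adjusted p = 0.0179) and 31.1% of start-proximal regions (adjusted p = 0.147), with 10.3% over all promoter windows. E2F-type letters (TTTNNCGC), as in sites of cell cycle factors, ran the other way, with 15.2% upstream against 23.1% of start-proximal (adjusted p = 0.0352) and 27.3% of two-strand regions (exact test, adjusted p = 0.000903). All promoter windows had them at 12.2%. The GC box (GGGCGG) was found at 13.0% upstream against 20.1% of two-strand regions (exact test, adjusted p = 0.0475) and 3.23% of all promoter windows. The acceptor letters TTTCAG were at 15.4% upstream against 23.03% of two-strand regions (exact test, adjusted p = 0.0428) and 35.4% of all promoter windows. The other 6 motifs, box A among them, passed the threshold in no comparison. GATA factor letters (TGATAA) were at 7.98% upstream and 19.1% of all promoter windows. Core promoter letters (TATAAA) were at 10.1% upstream and 24.2% of all promoter windows. A homopolymer run (TTTTTTTT) was at 9.04% upstream and 23.3% of all promoter windows. E-box letters (CACGTG) were at 2.93% upstream and 3.23% of all promoter windows. Letters of bZIP factors (TGANTCA) were at 4.52% upstream and 5.45% of all promoter windows, and box A at 5.59% and 1.80%. None of the 5 called motif differences described here held in every alternative: within 50 bp of the summit all 5 were lost. Without replicate 1 the GAGAGA difference had an adjusted p of 0.479, and the E2F-type differences 0.716 against start-proximal and 0.711 against two-strand regions, all by the exact test. Without replicate 2 the GAGAGA difference was at 0.0726, the GC box at 0.0858 and the E2F-type difference from start-proximal regions at 0.054, by the same exact test. The acceptor difference was lost in 11 of 14 alternatives, with adjusted p of 0.0505 to 1 there (exact test), the GC box difference in 6 (0.0717 to 0.247) and the E2F-type difference from start-proximal regions in 9 (0.054 to 0.716). The motifs were counted separately, and matches to different motifs may overlap. All promoter windows had a lower median GC content (33.8%) than upstream regions (46.8%), and motif shares were not adjusted for it.

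X-linked members were richer in GC and GAGAGA than autosomal ones, as a description without a test. On X, the median GC content of upstream regions was 51.2% and 45 of 84 (53.6%, Wilson 42.98 to 63.8%) held GAGAGA. On autosomes the values were 45.8% and 99 of 292 (33.9%, 28.7 to 39.5%). All promoter windows differed little between these chromosomes, with a median GC of 32.8% on X and 33.8% on autosomes, and GAGAGA at 11.4% and 10.2%. The X held 22.3% of upstream regions, against 4.61% of two-strand promoter regions (Fisher's exact test, adjusted p = 6.46e-10), a call that held in all 12 alternatives computed. Start-proximal regions were at 21.2% (exact test, adjusted p = 0.919), and regions outside promoters at 19.1% (adjusted p = 0.346). Two-strand promoter sequence is itself scarce on X, with 0.115 Mb eligible there of 2.09 Mb in all, beside 1.84 of 12.06 Mb for upstream regions. Per eligible Mb, two-strand regions stood at 121 on X (66.3 to 204) and 147 on autosomes (131 to 165), intervals that overlapped. The call compared shares of regions and was not adjusted for eligible sequence.

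The 25 strongest regions ranged over ribosomal, nuclear pore, chromatin and unnamed genes. The strongest lay 615 bp upstream of sre-23, a chemoreceptor gene of the sre family, with signals of 539 in replicate 1 and 429 in replicate 2. The next lay upstream of K12H4.5 with 577 and 394, and the one upstream of rpl-3, which encodes a large-subunit ribosomal protein, had 356 and 276. Those of T02E1.2 (329 and 295) and wrt-3 (318 and 284), a hedgehog-related warthog gene, followed. All 5 stood far above the medians of 58.3 and 41.5.

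Further down the ranking the gap between the replicates varied from region to region. The region in an intron of M01F1.8 upstream of M01F1.9 had 332 and 190, and that upstream of npp-6, a nuclear pore gene, 315 and 184. The region 893 bp upstream of cbp-1, the CBP/p300 histone acetyltransferase gene, had 257 and 177. The one at dhs-8, a short-chain dehydrogenase gene, had 275 and 150. At ftt-2, a 14-3-3 protein gene on X, the replicates were close, with 199 and 181, and at mtcu-2, a mitochondrial tRNA modification gene, they were far apart, with 237 and 105. The rest of the 25, from eel-1 to rpl-35, lay between 148 and 228 in replicate 1 and between 114 and 156 in replicate 2. These were the regions of eel-1, egg-5, gst-27, ZK1321.4, mrpl-23, W01D2.3, K02C4.2, ZK816.3, rps-28, F08G2.5, F39G3.3, usp-4 and rpl-35.

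**Figure D4:**
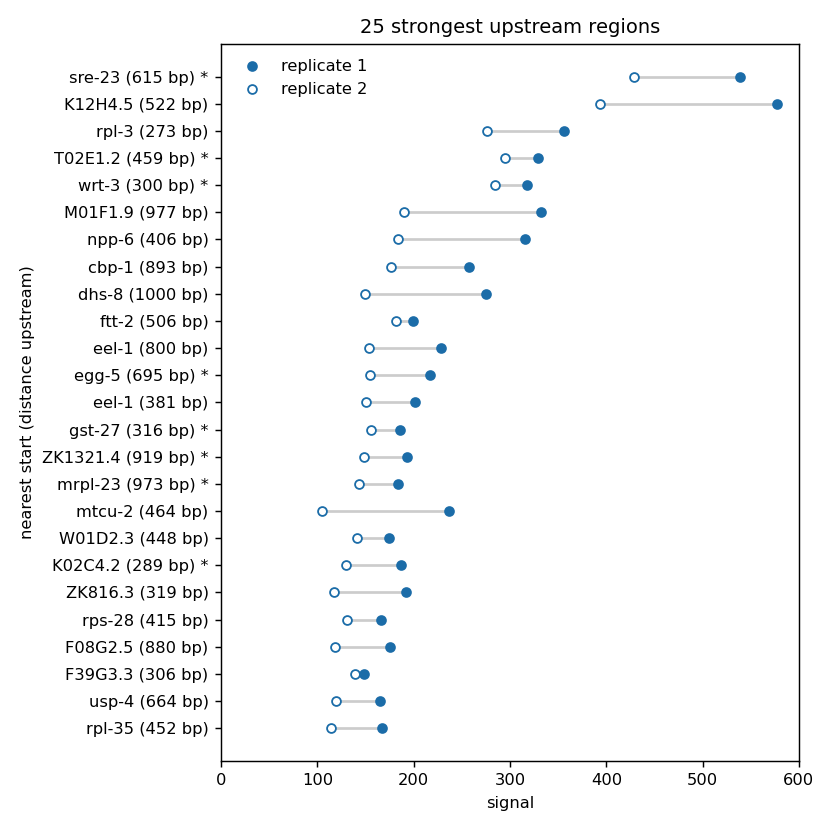
Signal in replicate 1 (filled) and replicate 2 (open) of the 25 strongest upstream regions, named by the nearest start with the distance upstream; an asterisk marks a small RNA gene within 200 bp. Replicate 1 was above replicate 2 at each of the 25, and sre-23 and K12H4.5 led.

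Small RNA genes lay beside many of the strongest regions. Such genes encode small nucleolar RNAs (snoRNAs), which guide modification of ribosomal RNA, and small nuclear RNAs (snRNAs) of splicing. A small RNA gene other than a tRNA gene lay within 200 bp of 22 upstream regions (5.85%, Wilson 3.90 to 8.70%), against 5 of 312 start-proximal regions (1.60%; Fisher's exact test, adjusted p = 0.0185). Two-strand promoter regions were at 2.30% (exact test, adjusted p = 0.0654) and regions outside promoters at 6.62% (adjusted p = 0.777). The difference from start-proximal regions was not called without replicate 2 (exact test, adjusted p = 0.0803), with the other thresholded list (0.0508) or with a reach of 750 bp (0.108). The 22 regions had a median pooled signal of 216, against 95.3 for the other 354. They made up 8 of the 25 strongest regions. At these regions the small RNA gene is the nearer transcription unit, and signal at its promoter cannot be told apart from signal belonging to the protein-coding gene.

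The summits kept to the 5′ side or the body of these genes. Of the 22, 13 had a snoRNA gene nearest, 8 an snRNA gene and 1 a microRNA gene. All 13 summits at snoRNA genes lay before the 5′ end of the snoRNA, at 12 to 80 bp with a median of 55 bp. The sre-23 region thus lay 56 bp before the snoRNA gene ZK265.10, the T02E1.2 region 61 bp before T02E1.9 and the wrt-3 region 57 bp before F38E11.14, which lies in an intron of the channel gene cng-3. The gst-27 summit lay 19 bp before Y53F4B.48, that of ZK1321.4 27 bp before T10B9.11 and that of K02C4.2 38 bp before K02C4.8. By contrast 6 summits lay inside the small RNA gene, among them egg-5, whose region covered sls-2.4, and H41C03.3 with sls-2.1, both genes of the SL2 spliced leader RNA. Signals there were 217 and 155 at egg-5 and 160 and 91.3 at H41C03.3.

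Box B letters were rare. They were found at 12 upstream regions (3.19%, Wilson 1.83 to 5.49%), against 1 of 304 two-strand promoter regions (0.329%; Fisher's exact test, adjusted p = 0.0299) and 4 of 312 start-proximal regions (1.28%; adjusted p = 0.285). The difference from two-strand regions was not called without replicate 1 (exact test, adjusted p = 0.377) or without replicate 2 (0.143), nor with motif windows of either other width. The share was 1.38% over all promoter windows and 74.8% in the 274 regions near tRNA genes. Unlike the upstream regions, the promoter windows were not filtered for distance from tRNA genes. The dhs-8 and ZK1321.4 windows printed above held them, and ZK1321.4 held box A before box B. Its snoRNA gene T10B9.11 begins 27 bp from the summit, and the dhs-8 summit lay inside an annotated non-coding RNA gene. In all, 39 upstream summits (10.4%, Wilson 7.68 to 13.9%) lay inside genes annotated as ncRNA, beside 16 of 312 start-proximal summits (5.13%). The shares were 7.24% of two-strand promoter summits (22 of 304) and 8.77% of summits outside promoters (110 of 1254). Matches are a description, and binding of TFIIIC was not measured.

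Repeated sequence was also common. The following counts were chosen after the values were seen and carry no test. A run of 20 bases shared with another nuclear region over 200 bp away was held by 96 upstream windows (25.5%, Wilson 21.4 to 30.2%). The shares were 17.9% of start-proximal regions, 19.4% of two-strand promoter regions and 28.5% of regions outside promoters. Windows at all promoters, with no filter for distance from tRNA genes, shared such a run with a nuclear region in 6.74%. Among upstream regions, 38 of the 94 strongest (40.4%, 31.1 to 50.5%) and 22 of the 94 weakest (23.4%, 15.99 to 32.9%) had one.

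The repeat set with most upstream members linked 34 nuclear regions, 11 of them upstream and none near a tRNA gene. Sets were formed by chaining, so a member shares a run with at least 1 other member but need not share one with all. The upstream members of this set had a median signal of 214 and a range of 66.5 to 520, and lay on 5 chromosomes. The top of that range was M01F1.9, whose window shared a run with only 2 nuclear regions, against 29 for the first eel-1 window. They were M01F1.9, npp-6, C26B2.7, Y32B12B.4, Y62F5A.12 and 2 regions each at eel-1, ttll-4 and rps-24. The 20-base run that most of these regions had in common was present in 84 copies in the nuclear genome. A region summit lay within 100 bp of 28 copies (33.3%, Wilson 24.2 to 43.9%), and a summit of the ranked list, which has no IDR threshold, within 100 bp of 56. Most copies of the run were thus without a region of the conservative list.

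A second set shared the mtcu-2 sequence and linked 14 regions, 6 of them upstream, at mtcu-2, npp-18, unc-85, vps-39, Y48G10A.2 and mec-6. Their median signal was 217 and their range 120 to 349. Its commonest run had 24 copies in the genome, of which 13 (54.2%, 35.1 to 72.1%) had a region within 100 bp. A set with 9 upstream regions, at cnk-1, F13H8.2, hsp-4 and others, had a lower median signal of 89.5, and its run had 102 copies, of which 14 (13.7%) had a region. Another 9 upstream regions, with a median of 85.9, belonged to a chained set of 102 regions, 49 of them near tRNA genes, in which each member shares a run with at least 1 other but not with all. Reads from identical copies cannot be placed by sequence, and no source used here states how the authors' alignment treated them.

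Of the 372 nearest genes, 4 had a pair of upstream regions each, namely eel-1, ttll-4, rps-24 and sup-26. At eel-1 both were strong, with 228 and 154 at 800 bp and 202 and 150 at 381 bp. At ttll-4, a tubulin ligase-like gene, the near region at 363 bp had 154 and 78.2 and the far one at 809 bp 47.6 and 38.9. At rps-24, a small-subunit ribosomal protein gene, the near region at 328 bp had 128 and 80.6. The far one at 719 bp had 35.9 in replicate 2 and no value found in replicate 1. At sup-26 both were weak, with 61.7 and 35.9 at 841 bp and 43.1 and 41.8 at 260 bp.

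The starts themselves were mostly without a region. A conservative region within 250 bp of the nearest start was found at 20 of the 376 members (5.32%, Wilson 3.47 to 8.07%). A peak of the ranked list was found there at 193 (51.3%), with a median of 0.309 of the signal of the upstream region, and it exceeded that signal at 13. Neither share was counted over all starts. Beside them, 6.81% of all nuclear protein-coding genes held a region of any class anywhere in the promoter. A start peak that overlapped a stronger upstream peak was merged into its region and not counted as a region. At T02E1.2 the start also had a start-proximal region, and the strongest ranked peak there had 0.117 of the upstream signal. At Y62F5A.12 the ratio was 0.404 and at his-31 0.858. At his-1 it was 1.12 and at pdtf-1 1.13, so there the start was the stronger place.

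Promoters of 379 genes, 1.90% of 19973 nuclear protein-coding genes, held an upstream region, and promoters of 1360 genes (6.81%) held a region of any class. Against that 1.90%, 13 of 83 cytosolic ribosomal protein genes (15.7%, Wilson 9.39 to 24.98%) held an upstream region. The strongest were rpl-3 (356 and 276), rps-28 (166 and 131) and rpl-35 (167 and 114), at 273, 415 and 452 bp. The 14 regions of this list had a median signal of 111 and lay up to 719 bp upstream. Ribosomal protein genes had more regions of the two-strand class, at 26 genes, than of the upstream class, and start-proximal regions at 2.

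Histone genes followed with 8 of 80 (Wilson 5.15 to 18.5%). The region upstream of his-15 had 99.3 and 76.9, that of his-31 had 117 and 58.8 and that of his-1 had 70.6 and 72.1. The his-31 and his-1 summits lay in the coding exons of his-32 and his-2 beside them. Histone genes are nearly identical copies, and runs shared among them linked the windows of his-31, his-1 and his-60, and those of his-15, his-14 and his-8. Which copy the reads came from is therefore uncertain.

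Most lists of broadly used genes also had shares above 1.90%. For vesicle trafficking, proteasome and ubiquitin, and mitochondrial ribosomal protein genes, given last, the Wilson intervals included that value. High shares were not particular to the upstream class. With a region of any class, these lists ran from 13.4% (proteasome and ubiquitin) to 30.2% (chaperones), against 6.81% of all genes. Cytosolic ribosomal protein genes were at 49.4% and histone genes at 42.5%. Respiratory chain genes had 6 of 73 (8.22%), with the cytochrome oxidase subunits cox-6A (121 and 121) and cox-5A (89.9 and 95.8) and cytochrome c1, cyc-1 (79 and 85.2), all about equal in the replicates. The cox-6A summit lay inside the snRNA gene F54D8.7. Chromatin regulators had 8 of 107 (7.48%), led by cbp-1, with the bromodomain gene bet-2 (78.4 and 38.1) and the H3K4 methyltransferase gene set-2 (51.99 and 53.5) far below it. Translation factors and tRNA synthetases had 4 of 68 (5.88%), with eif-3.B at 91.3 and 56.2, kars-1 at 88.3 and 50.4 and eif-2Bgamma at 59.8 and 57.2. The eif-2Bgamma summit lay inside the snRNA gene sup-39. The cytoskeletal list had 8 of 140 (5.71%), with the alpha-spectrin gene spc-1 at 128 and 81.0, the actin gene act-2 at 74.6 and 41.2 and the profilin gene pfn-2 at 59.9 and 44.7.

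Chaperones had 5 of 96 (5.21%), led by the Hsc70 gene hsp-1 at 93.1 and 61.0, with dnj-5 and cyn-5 at 43.95 and 45.99 and at 39.8 and 48.8. RNA-binding and splicing genes had 6 of 117 (5.13%), with fust-1 at 111.7 and 83.8, the Sm protein gene snr-4 at 139 and 61.7 and puf-9 at 93.7 and 49.8. The snr-4 summit lay 27 bp before an snRNA gene. Vesicle trafficking genes had 6 of 150 (Wilson 1.85 to 8.45%), with vps-39 at 128 and 60.2, apa-2 at 82.1 and 50.9 and sec-16A.2 at 70.3 and 58.4. The proteasome and ubiquitin list had 3 of 97 (3.09%): usp-4 at 165 and 119, ubc-3 at 56.2 and 35.7 and ubc-7 at 45.2 and 30.4. Mitochondrial ribosomal protein genes had 2 of 70 (2.86%), mrpl-23 at 184 and 143 and mrpl-15 at 58.3 and 61.7, and the mrpl-23 summit lay 34 bp before a snoRNA gene in an intron of fars-1.

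Shares were lower for regulatory genes of development, but above 1.90% for transcription factors, signalling and cell cycle genes. The median signals of their regions were 98.1, 98.1 and 105, beside 98.5 for all upstream regions. Developmental transcription factors other than homeobox genes had 6 of 192 (3.13%), with the endoplasmic reticulum stress factor gene atf-6 at 71.8 and 51.9. The zinc-finger genes ztf-13 and ztf-29 had 62.1 and 50.2 and 73.5 and 33.2. Signalling genes had 4 of 142 (2.82%), with the strong wrt-3 region at its snoRNA gene, the beta-catenin gene wrm-1 at 70.4 and 37.5 and the adaptor gene sem-5 at 67.0 and 37.2. Cell cycle genes had 2 of 97 (2.06%), the kinetochore gene knl-3 at 55.7 and 85.2 and the CDK inhibitor gene cki-1 at 46.1 and 48.4. Nuclear hormone receptors had 4 of 274 (1.46%), with nhr-48 at 93.5 and 47, and homeobox genes had 1 of 97 (1.03%), ceh-20 at 39.8 and 31.8. The Wilson intervals of both lists also included 1.90%.

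Lists of cuticle, chemosensory and neuronal genes were lowest. Collagen and moulting genes had 1 of 228 (0.439%), col-175 at 56.0 and 29.3, in an intron of lgc-4. Chemoreceptor genes had 5 of 1309 (0.382%, Wilson 0.163 to 0.891%), and the strongest of these, sre-23, was the one beside a snoRNA gene; srh-246 had 52.5 and 64.5 and srbc-38 had 70.5 and 47.1. Neuropeptide, channel and synapse genes had 1 of 478 (0.209%, 0.0369 to 1.18%), the insulin-like gene ins-39 at 52.5 and 55.2. Neighbouring genes can share a region, and lists differ in how much single-strand upstream sequence they have, so no test was made on them.

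**Figure D5:**
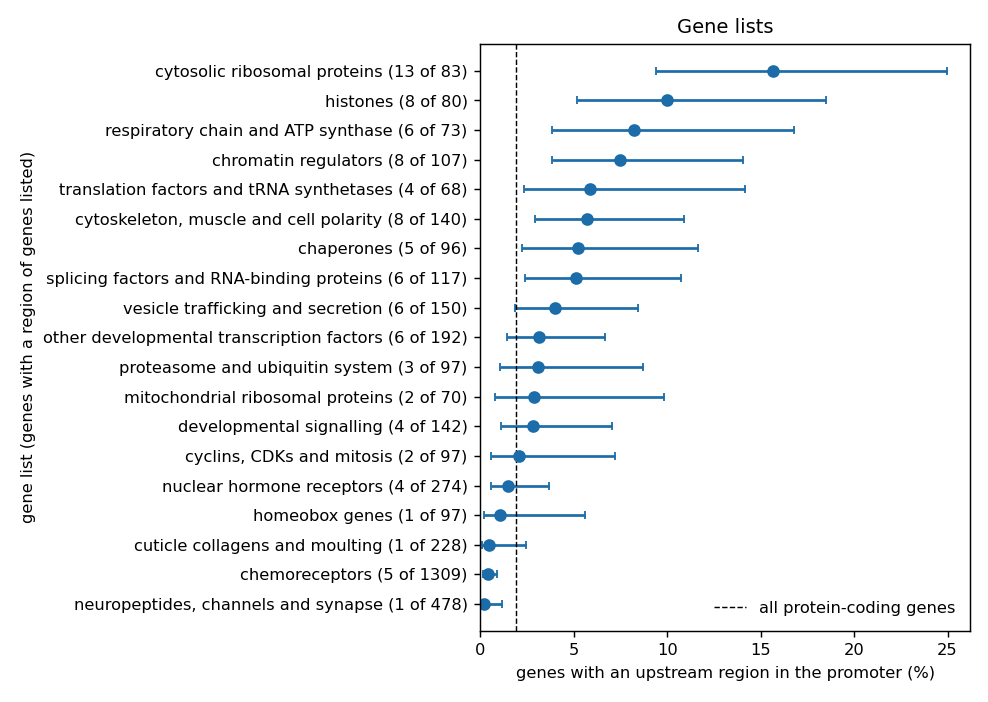
Share of the genes of each of 19 lists with an upstream region in the promoter, with 95% Wilson intervals; the dashed line is the 1.90% of all nuclear protein-coding genes. Cytosolic ribosomal protein genes were highest at 15.7%, and chemoreceptor and neuronal genes lay below the line with their intervals.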

How the data were processed

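ChIP-seq peaks of an anti-GFP immunoprecipitation were deposited for 2 biological replicates of 1 group, as lists per replicate and over both replicates. The authors' signal is the peak caller's value per peak, a signal whose scale is not stated, and the caller and aligner are not given in the sources used, and the assembly was ce11, per the file headers. The −log10 of the irreproducible discovery rate (IDR) was deposited by the authors in the ranked list, and every peak of the conservative list was at an IDR of 0.01 or less. Read depth is unknown, so no interval for a single signal could be made, and no control list was analysed here.

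Peaks overlapping by at least 1 bp were merged and placed at the summit with the highest signal. Promoters and gene classes came from Ensembl release 115, and windows of the summit and 100 bases to either side from the RefSeq copy of the same assembly. The replicates' values were read from each replicate's own ranked list at the interval that the combined ranked list records. Shares carry 95% Wilson intervals and densities exact Poisson intervals. Upstream regions were set against 3 other classes in 20 properties by 2-sided Fisher's exact tests. Benjamini-Hochberg adjustment ran over the 60 comparisons. The tests were also run on simulated data, in which the properties were drawn independently, unlike the related properties here. Named genes were the 25 strongest regions by the mean of both log2 replicate signals, up to 3 per gene list, those nearest the ends of the window, and up to 5 each with a region at the start or a small RNA gene nearby; others were named after their values were seen. The members and the 19 gene lists were chosen with earlier results of these data known. Analyses used Python 3.11.15 with scipy 1.17.1, pandas 2.3.3, matplotlib 3.10.9 and numpy 2.4.6. Alternatives changed the peak list, merging, placement, distance window, promoter reach, tRNA margin, motif window and overlap.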

Additional observations from a re-analysis of the deposited data

How the results depend on the processing

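The counts followed the strictness of the peak list. At an IDR of at most 0.001 there were 160 upstream regions at 161 genes, 13.27 per eligible Mb, and 73.75% of them were in both own lists. With 1 replicate's own list, the upstream regions numbered 164 to 229, their genes 166 to 231 and their density 13.6 to 18.99 per Mb. The share of nuclear regions was 19.21% for a window starting above 150 bp, 10.63% for one starting above 350 bp, 12.46% for a reach of 750 bp and 18.65% for 1500 bp. Of the 60 comparisons, 12 passed with a reach of 750 bp and 13 with motif windows within 50 bp, against 20 as reported. Of the called comparisons that could be computed, 3 of 18 were still called at an IDR of at most 0.001, 5 of 12 without replicate 1 and 5 of 12 without replicate 2.

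Some differences changed sign, given as upstream minus the other class in percentage points, and 2 of them had been called. Signal above the median against start-proximal regions was 4.653 at an IDR of at most 0.001 and 9.37 for the window above 150 bp. Replicate 1 signal against two-strand promoters, called at -11.37 as reported, was 1.369 at an IDR of at most 0.001. Presence in both own lists against start-proximal regions was -3.451 for the window above 350 bp, -2.042 for 1500 bp, -1.739 without regions near small RNA genes and -0.9343 with the stricter overlap. The acceptor letters against two-strand promoters, called at -7.601 as reported, were at 0.21 within 50 bp. The share on X against start-proximal regions was -0.3343 with the other list, -4.386 to 1.006 with 1 replicate left out, -1.758 for the window above 150 bp and -0.7672 for 1500 bp, and against regions outside promoters -3.343 to 3.581 with 1 replicate left out. The cause was not tested. Properties that need both replicates had no value in single-replicate lists. No paired analysis was possible because the series holds 1 group.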
